A study of Mus musculus with 46 samples.

Results

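Of the 46 mouse RNA libraries of the series, 34 carry a blood, neutrophil, monocyte or skin label, and 6 of those 34 fell in a skin class and 8 in a monocyte class by their marker transcripts. These 6 skin-class and 8 monocyte-class libraries are set side by side here. They were chosen by measured marker levels, in 3 steps. A library with more than 10% of its counts in the haemoglobin genes Hba-a1, Hba-a2, Hbb-bs and Hbb-bt was of the blood class, which took 10 libraries. Of the rest, one with more than 100 CPM (counts scaled to the library total) in Krt5 and Krt14 together was of the skin class, one with more than 10000 CPM in S100a8 and S100a9 together was of the neutrophil class, which also took 10, and all others were of the monocyte class.

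The animals came from a mouse model of mucous membrane pemphigoid in which antibodies are directed at laminin 332, and had been given intravenous immunoglobulin (IVIG) or phosphate-buffered saline (PBS). RNA was taken from skin, from whole blood, or from neutrophils and monocytes of the bone marrow, per the labels, and poly(A) RNA was sequenced. The labels name 3 Skin libraries with IVIG and 3 with PBS, all of the series numbered 5 in their titles, and 3 Monocyte libraries with IVIG and 5 with PBS, of the series 2, 3 and 5. Strain, age and the way the disease was induced are not given in the sources used here, and no library of an animal without the model is among these labels.

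Skin is a layered tissue. Basal keratinocytes hold on to the basement membrane through hemidesmosomes, in which the integrin of the Itga6 and Itgb4 chains and the transmembrane collagen of Col17a1 bind laminin 332, a basement membrane protein whose genes include Lama3 and Lamb3; antibodies to this laminin detach the epithelium. Above the basal layer, keratinocytes change their keratins and build the cornified envelope, and below it lies a dermis of fibroblasts, vessels and fat that houses Langerhans cells, macrophages, mast cells and T cells of its own. Bone marrow monocytes descend from granulocyte and monocyte progenitors, divide in the marrow and enter tissues, where some become macrophages.

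The labels and the transcripts did not always name the same tissue. Over the 34 libraries the label named the marker class in 25 and another tissue in 9. The skin class holds Skin IVIG 1, Skin IVIG 2, Skin PBS 2 and Skin PBS 3, together with Blood IVIG 3 and Blood PBS 2, whose transcripts are those of skin. The monocyte class holds Monocyte IVIG 1, 2 and 3, Monocyte PBS 2, 3, 4 and 5, and Blood IVIG 2. Of the libraries labelled Skin, Skin IVIG 3 had 96.2% of its counts in haemoglobin genes and Skin PBS 1 had 96.8%, with Krt5 and Krt14 at 0 in both. Monocyte PBS 1 had 36963 CPM of S100a8 and S100a9. Each library keeps its deposited label below, and the IVIG or PBS of a library is that of the label.

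The keratin and haemoglobin limits lay in wide gaps, while the S100a8 and S100a9 limit lay close to some monocyte-class libraries. The lowest sum of Krt5 and Krt14 in the skin class was 309.9 CPM in Skin PBS 3 and the next was 331 CPM in Blood IVIG 3, against at most 0.435 CPM in the 28 other libraries. S100a8 and S100a9 summed to at most 13.9 CPM in the skin class and to 715 to 8070 CPM in the monocyte class, and the lowest neutrophil-class library had 33729 CPM. Haemoglobin took at most 0.0264% of counts in the skin class and at most 0.577% in the monocyte class, and the lowest blood-class library had 89.2%.

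Depth was similar and library quality was not. The skin class had 29202869 to 38479173 estimated counts a library (median 30813558) and the monocyte class had 18965434 to 33938547 (median 25926168). At least 5 counts were found for 17565 to 18702 genes in the skin class and for 8959 to 16139 genes in the monocyte class. Mitochondrially coded genes took 4.10% to 7.88% of counts in the skin class, against 3.68% to 82.7% in the monocyte class, with 82.7% in Monocyte PBS 3, 55% in Monocyte IVIG 1, 45.5% in Monocyte PBS 2, 30.4% in Monocyte IVIG 2 and 17.4% in Monocyte PBS 4. Levels are also described as CPM of the counts left without mitochondrially coded genes (non-mitochondrial CPM) where this changes what is seen.

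**Figure D1:**
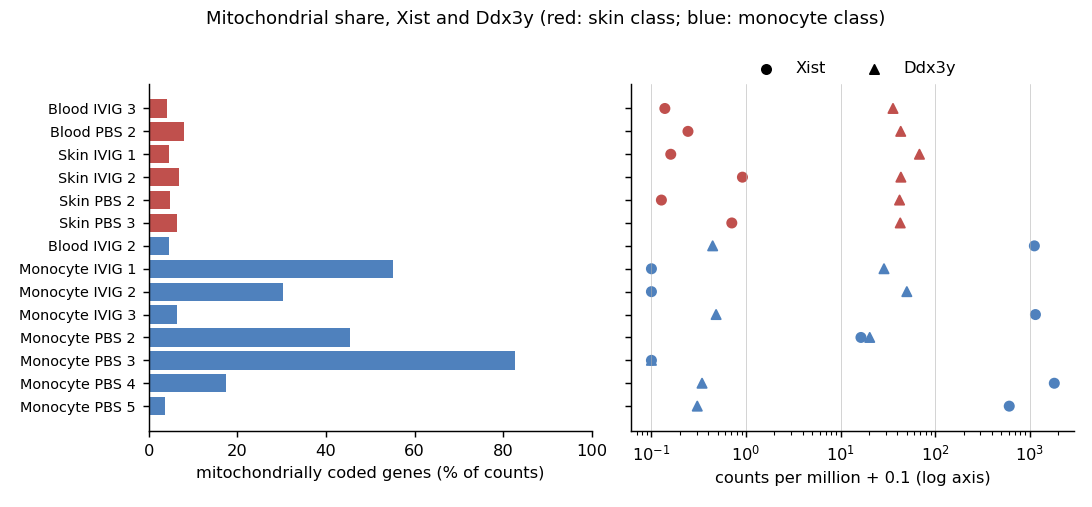
Share of counts in mitochondrially coded genes (left, percent of counts) and CPM of Xist and Ddx3y (right, log axis with 0.1 CPM added) in each of the 6 skin-class (red) and 8 monocyte-class (blue) libraries, a bar or a point per library. All 6 skin-class libraries lie between 4.10% and 7.88% with Xist near 0, while 4 monocyte-class libraries exceed 30% and the other 4 hold Xist at 609 to 1825 CPM.

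Monocyte-class libraries also differed in sex-linked transcripts. Xist, the RNA of the inactive X chromosome, was at most 0.817 CPM in the skin class, where the Y-linked Ddx3y was 35.8 to 68.3 CPM. In the monocyte class Xist was 609 to 1825 CPM in Blood IVIG 2, Monocyte IVIG 3, Monocyte PBS 4 and Monocyte PBS 5, with Ddx3y at most 0.383 CPM. Xist was at most 16.4 CPM in the other 4, which are the 4 with mitochondrial shares of 30.4% to 82.7%. Their Ddx3y was 28.7 CPM in Monocyte IVIG 1, 50.2 in Monocyte IVIG 2, 20.3 in Monocyte PBS 2 and 0 in Monocyte PBS 3. By title these 4 are of series 5, or 2 for Monocyte PBS 3. Those with high Xist are of series 3, or 5 for Blood IVIG 2. The part of these differences in any result below was not tested.

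Because the classes were made from measured levels, a difference between them is described here without a test. Among 15674 genes that averaged 1 CPM or more in either class, 2841 (18.1%) lay higher in all 6 skin-class libraries than in all 8 monocyte-class libraries with medians at least 4-fold apart after adding 1 CPM, and 178 (1.14%) lay lower in the same sense. In non-mitochondrial CPM these counts were 2459 and 587, of which 2426 and 176 were among the genes first counted. Without Monocyte PBS 3 the second count was 639 in place of 178.

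The labelled tissues do not use the marker levels and can be tested. The 6 libraries labelled Skin were compared with the 8 labelled Monocyte by the quasi-likelihood test of edgeR with Benjamini-Hochberg adjustment, which is the source of every adjusted p below, and each log2 change stands with its SE. Of 14234 genes tested, 2230 (15.7%) were higher in labelled Skin and 1497 (10.5%) were lower, around a median log2 change of 0.24 over all tested genes. The titles carry a series and a number, and Skin and Monocyte libraries of series 5 share 4 numbers. Whether a number is an animal is not said, and the test treats all libraries as independent. Each p thus measures the spread between libraries only. With series and number as a replicate block, where only libraries of the 4 shared numbers inform the difference, 93 genes were higher and 164 lower. Many keratinocyte genes were not tested in this comparison because they were counted in only 4 of the 6 labelled Skin libraries. Genes counted in the labelled Monocyte libraries alone could be tested, so its counts for lists of such genes lean towards lower genes. The comparison contains Skin IVIG 3, Skin PBS 1 and Monocyte PBS 1 under their labels. Without those 3 libraries, a choice that uses the marker classes and is given as a description, 4235 of 16703 genes (25.4%) were higher and 2432 (14.6%) were lower, and 1750 genes were higher and 1390 lower both ways. Genes counted in the 4 remaining Skin libraries alone can enter this description. Its counts for the lists below therefore lean towards higher genes and are no further test. In whole tissue, a level reflects both how many cells of a type are present and how much RNA each holds, and these cannot be told apart.

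**Figure D2:**
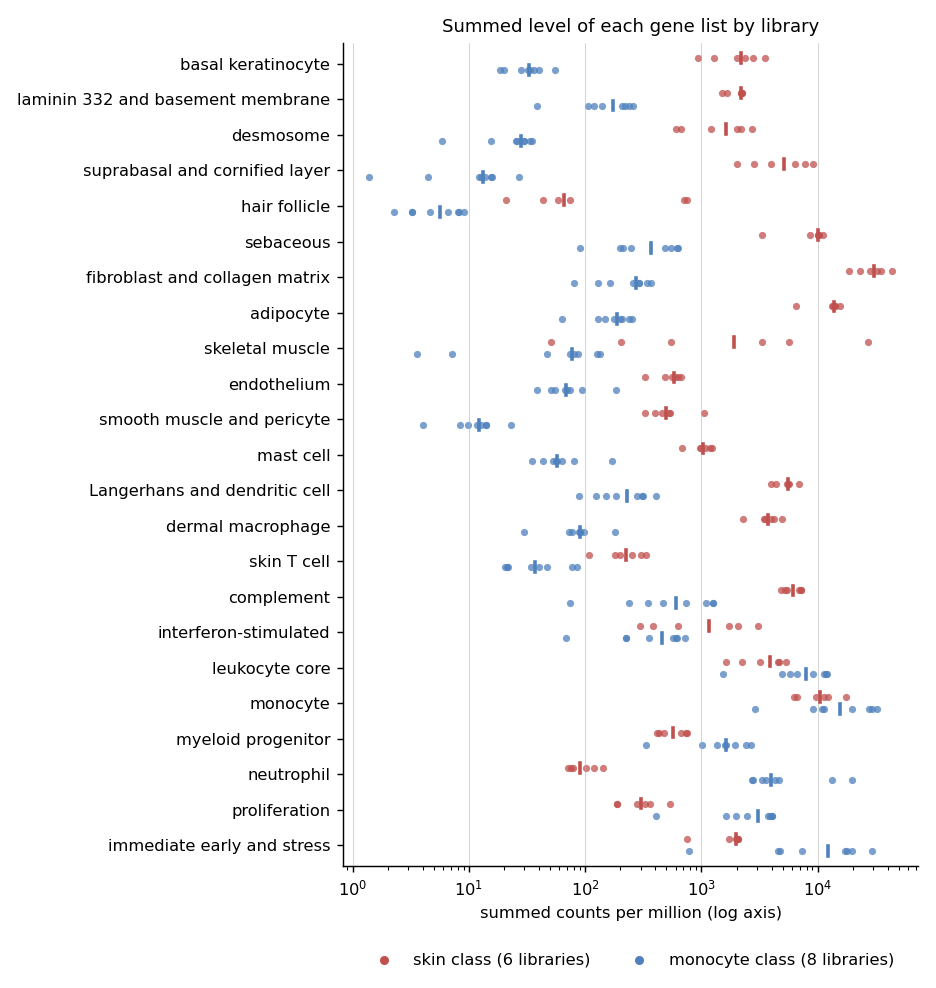
Summed CPM of the genes of 23 lists (log axis) in each skin-class (red, 6 points) and monocyte-class (blue, 8 points) library, with a short line at each class median. The epidermal, dermal and resident immune lists lie apart, with suprabasal genes at a median of 5156 CPM against 13.2 CPM, while the monocyte and leukocyte core lists overlap, the leukocyte core through Monocyte PBS 3 and Monocyte IVIG 1 alone.

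The basal keratinocyte list holds the 2 keratins that chose the skin class. Krt5 (chr15:101707070-101712898, minus strand, GRCm38) encodes the keratin that pairs with that of Krt14 (chr11:100203162-100207548, minus strand) to form the filaments of basal cells. Krt5 was 197, 518 and 1004 CPM at the lowest, median and highest skin-class library, and 0 in all 8 monocyte-class libraries. Krt14 was 108, 256 and 571 CPM in the skin class, and 0 in all 8 of the monocyte class. A count of 0 allows up to 3 counts, or 0.158 CPM in the shallowest monocyte-class library, so the skin-class medians lay at least 3272-fold higher for Krt5 and at least 1616-fold higher for Krt14, where the bound covers counting error only. The order of the skin-class libraries was the same for both genes at the top, with Skin IVIG 2 and then Skin PBS 2 highest, and Blood IVIG 3 and Skin PBS 3 lowest.

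The other basal genes followed the keratins that the rule used. Krt15, a further basal keratin, was 64.0, 205 and 390.2 CPM in the skin class and 0 in all 8 monocyte-class libraries, and Trp63, the transcription factor that maintains stratified epithelium, was 11.3, 35.6 and 70.0 CPM against at most 0.0178 CPM. The 12 genes of the list summed to 924, 2188 and 3550 CPM in the skin class and to 18.4, 33.0 and 55.3 CPM in the monocyte class. In the comparison of labels 4 of the 12 could be tested and all 4 were higher in labelled Skin, with a median log2 change of 4.82. The integrin genes of this list are described with the laminins.

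Transcripts of laminin 332, the target of the antibodies, were counted in every skin-class library for the genes described, but they did not separate the classes equally. Lama3, the alpha chain, was 5.18, 12.4 and 17.8 CPM in the skin class, and 0 in all 8 monocyte-class libraries, so that the skin median lay at least 78.3-fold higher. The Lama3 ranges of the classes did not overlap. Lamb3 (chr1:193207699-193343878, plus strand), the beta chain, was 4.51, 7.68 and 16.7 CPM in the skin class and 0, 1.03 and 47.4 CPM in the monocyte class. The value of 47.4 CPM was that of Monocyte IVIG 2, the shallowest library, above every skin-class library. The other 7 monocyte-class libraries had at most 4.69 CPM, in Blood IVIG 2, which lies inside the skin-class range. Lamb3 did not pass the test of labels, averaging 6.50 ± 5.97 CPM in labelled Skin (SD, n = 6) and 9.43 ± 16.9 CPM in labelled Monocyte (SD, n = 8), with a log2 change of 0.36 ± 1.15 and an adjusted p of 0.852. Without Monocyte IVIG 2 the change was 1.75 (adjusted p = 0.221), and with limma voom it passed, at 2.67.

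**Figure D3:**
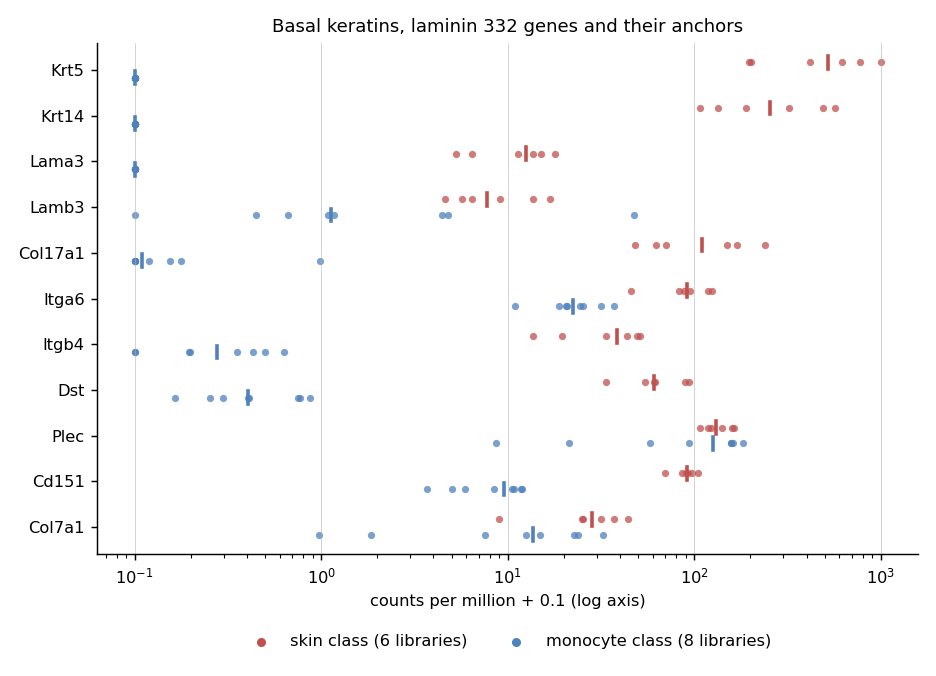
CPM with 0.1 added (log axis) of the basal keratins, 2 genes of laminin 332 and genes of its anchors in each skin-class (red, 6 points) and monocyte-class (blue, 8 points) library, with a line at each class median. Lamb3 reaches 47.4 CPM in one monocyte-class library, and Plec and Col7a1 overlap between the classes, while Krt5, Krt14 and Lama3 are 0 in all 8 monocyte-class libraries.

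Among the receptors of laminin 332, Itgb4, the beta chain of the hemidesmosomal integrin, was 13.6, 38.5 and 51.4 CPM in the skin class and at most 0.529 CPM in the monocyte class. It was higher in labelled Skin, at 24.5 ± 21.1 CPM (SD, n = 6) against 0.192 ± 0.190 CPM in labelled Monocyte (SD, n = 8), with a log2 change of 7.01 ± 0.85 and an adjusted p of 5.07e-05. Its partner chain Itga6 was 45.6, 91.3 and 125 CPM in the skin class and 10.8, 22.4 and 37.2 CPM in the monocyte class. Itga6 was higher in labelled Skin by a log2 change of 2.65 ± 0.59 (adjusted p = 0.00398), and its class ranges overlapped in non-mitochondrial CPM. Its change was 1.27 without the 3 contradicted libraries and 1.76 without Skin PBS 1 alone, and with totals in place of TMM scaling its adjusted p was 0.243. Cd151, a tetraspanin that joins integrins at the basal surface, was 69.9, 91.0 and 104 CPM in the skin class and 3.58, 9.41 and 11.8 CPM in the monocyte class, and was higher in labelled Skin by 3.58 ± 0.39 (adjusted p = 1.95e-05). Col17a1, the collagen of the hemidesmosome, was 48, 110.3 and 238 CPM in the skin class and at most 0.882 CPM in the monocyte class.

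Some genes of the adhesion zone overlapped between the classes. Plec, which links integrins to keratin filaments and is made by many cell types, was 108, 131 and 164 CPM in the skin class and 8.51, 125 and 182 CPM in the monocyte class. Col7a1, the collagen of anchoring fibrils, was 8.84, 28.3 and 44.2 CPM in the skin class and 0.872, 13.6 and 32.3 CPM in the monocyte class. The skin-class ranges of both lay for the most part inside those of the monocyte class. Dst, which encodes the hemidesmosomal plakin as one of its isoforms, was 33.7, 60.8 and 93.9 CPM in the skin class and at most 0.770 CPM in the monocyte class. Of the 18 genes of the laminin 332 and basement membrane list, 13 lay wholly above by at least 4-fold in the skin class. In the comparison of labels 10 were tested, of which 6 were higher and 0 lower, with a median log2 change of 3.12, and without the contradicted libraries 14 of 18 were higher.

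Genes of desmosomes, the junctions that hold keratinocytes to each other, lay apart in the classes. Dsp, which encodes the plakin that ties desmosomes to keratin, was 84.5, 264 and 436 CPM in the skin class and at most 0.794 CPM in the monocyte class, and was higher in labelled Skin by a log2 change of 9.05 ± 1.35 (adjusted p = 0.000246). Perp, a membrane protein of desmosomes, was 237, 623 and 1126 CPM in the skin class and at most 1.61 CPM in the monocyte class. The 13 genes of the list summed to 602, 1621 and 2702 CPM in the skin class and to 5.82, 27.8 and 35.2 CPM in the monocyte class. In the comparison of labels 5 of 6 tested desmosomal genes were higher and 0 lower, and without the contradicted libraries 13 of 13 were higher.

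The suprabasal and cornified layer list had the widest ratio of class medians of all 34 lists. Its 22 genes summed to 2006, 5156 and 9098 CPM in the skin class and to 1.39, 13.2 and 27.0 CPM in the monocyte class, a 389.8-fold ratio of medians. Krt10, the keratin of cells that have left the basal layer, was 481, 1527 and 2374 CPM in the skin class and at most 2.88 CPM in the monocyte class. It averaged 1038 ± 1070 CPM in labelled Skin (SD, n = 6) and 0.769 ± 0.910 CPM in labelled Monocyte (SD, n = 8), higher by a log2 change of 10.34 ± 1.52 (adjusted p = 0.000227). The labelled Skin group holds the 2 libraries rich in haemoglobin, and its SD is as large as its mean. Sbsn, a secreted protein of the upper epidermis, was 501, 898 and 1419 CPM in the skin class and at most 3.24 CPM in the monocyte class, and was higher in labelled Skin by 8.33 ± 1.30 (adjusted p = 0.000354).

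Lor, Ivl and Krtdap of the cornified layer were 0 in all 8 monocyte-class libraries. Lor, the main protein of the cornified envelope, was 184, 522 and 896 CPM in the skin class. Ivl, an early envelope protein, was 9.48, 21.0 and 56.5 CPM, and Krtdap, a secreted differentiation protein, was 124, 292 and 600.4 CPM. Their skin-class medians lay at least 3300.4-fold, 132.7-fold and 1849-fold above the limit that a count of 0 allows. Krt2, a keratin of the outer layers in some body sites, was an exception, at most 0.667 CPM in the skin class and at most 3.20 CPM in the monocyte class. In the comparison of labels 4 of 7 tested genes of the list were higher and 0 lower, with a median log2 change of 4.91, and without the contradicted libraries 20 of 22 were higher.

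The promoters of 4 suprabasal genes are shown because AP-1 sites are known to act in the promoter of involucrin and other differentiation genes of keratinocytes. Each window runs from 250 bases before to 50 bases after the start of the gene, on the strand of the gene, from RefSeq on GRCm38.p6. Capitals mark every match to TGANTCA, an AP-1 type motif that reads the same on both strands and overlaps no other motif searched. The windows are chr3:92083093-92083392 (minus strand) for Lor, chr3:92573686-92573985 (minus strand) for Ivl, chr7:30751221-30751520 (plus strand) for Sbsn and chr7:30787655-30787954 (plus strand) for Krtdap.
Lor: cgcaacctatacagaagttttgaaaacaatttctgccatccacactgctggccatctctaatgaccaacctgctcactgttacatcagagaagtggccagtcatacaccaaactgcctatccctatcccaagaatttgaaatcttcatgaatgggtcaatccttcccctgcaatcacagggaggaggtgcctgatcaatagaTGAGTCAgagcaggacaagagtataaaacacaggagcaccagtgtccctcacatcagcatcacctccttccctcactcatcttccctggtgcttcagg
Ivl: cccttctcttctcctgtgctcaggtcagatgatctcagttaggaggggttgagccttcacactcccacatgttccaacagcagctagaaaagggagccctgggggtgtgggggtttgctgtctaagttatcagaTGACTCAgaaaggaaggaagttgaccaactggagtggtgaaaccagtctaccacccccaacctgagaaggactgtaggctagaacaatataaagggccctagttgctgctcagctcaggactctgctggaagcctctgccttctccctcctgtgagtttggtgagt
Sbsn: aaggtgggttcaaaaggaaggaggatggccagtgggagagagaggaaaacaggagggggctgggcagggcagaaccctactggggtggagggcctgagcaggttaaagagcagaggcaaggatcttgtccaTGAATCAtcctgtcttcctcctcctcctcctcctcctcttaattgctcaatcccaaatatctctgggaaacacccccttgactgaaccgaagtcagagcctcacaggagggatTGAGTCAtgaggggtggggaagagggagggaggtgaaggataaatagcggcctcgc
Krtdap: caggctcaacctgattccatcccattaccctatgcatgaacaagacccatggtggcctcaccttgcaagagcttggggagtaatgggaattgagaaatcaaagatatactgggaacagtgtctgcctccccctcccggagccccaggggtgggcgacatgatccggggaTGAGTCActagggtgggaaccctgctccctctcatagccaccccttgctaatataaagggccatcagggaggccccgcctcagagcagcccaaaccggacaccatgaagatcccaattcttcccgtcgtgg

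The match began 48 bases before the start of Lor, 116 before that of Ivl, 81 before that of Krtdap, and 119 and 6 before that of Sbsn. Of the 23 windows of the suprabasal list, 9 (39.1%) held the motif, against 2565 of all 32851 windows (7.81%). The 9 windows belong to 7 genes, since Dmkn has 3 of them, and 2 of its windows overlap and hold the same match. It was in 1 of 9 windows of the basal list (11.1%), in 1 of 17 of the laminin 332 and basement membrane list (5.88%) and in 0 of 21 of the hair follicle list. A match is a run of letters and not a bound site.

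Skin appendages were present at unequal levels. Scd1, the desaturase abundant in sebaceous glands and fat, was 2172, 7538 and 8767 CPM in the skin class and at most 5.01 CPM in the monocyte class, and was higher in labelled Skin by a log2 change of 10.62 ± 1.96 (adjusted p = 0.00122). With limma voom that change was 16.5. Awat2, a wax synthase of sebaceous glands, was 3.41, 9.00 and 9.86 CPM in the skin class and at most 0.630 CPM in the monocyte class. The 14 sebaceous genes summed to 3310, 10046 and 11122 CPM in the skin class and to 89.8, 369 and 630.2 CPM in the monocyte class, and Blood IVIG 3 alone lay far below the other skin-class libraries, whose lowest was 8498 CPM. Of 8 tested sebaceous genes 5 were higher in labelled Skin and 0 lower.

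Hair follicle keratins split the skin class. Krt71, a keratin of the inner root sheath, was 143 CPM in Skin IVIG 1 and 136 CPM in Skin IVIG 2, and at most 0.213 CPM in the other 4 skin-class libraries and 0 in all 8 of the monocyte class. Tchh, trichohyalin of the inner root sheath, was 172 and 206 CPM in the same pair, at most 2.57 CPM in the other 4, and at most 4.70 CPM in the monocyte class. The melanocyte gene Dct, an enzyme of melanin synthesis, was 39.1 CPM in Skin IVIG 1 and 20.4 CPM in Skin IVIG 2, and 2.43 to 5.85 CPM in the other 4, with 0 in all 8 monocyte-class libraries. Gata3, a transcription factor of hair follicles and of T cells, did not follow the split, at 15.1, 46.7 and 84.9 CPM in the skin class and at most 3.06 CPM in the monocyte class, and was higher in labelled Skin by a log2 change of 4.44 ± 0.67 (adjusted p = 0.000283).

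Apart from mitochondrially coded genes, the dermal matrix list had the highest summed level in the skin class. The 20 fibroblast and matrix genes summed to 18478, 30288 and 43706 CPM in the skin class and to 80.6, 272 and 366 CPM in the monocyte class. Col1a1 (chr11:94936224-94953042, plus strand), a chain of type I collagen, was 3896, 7177 and 12110 CPM in the skin class and 9.61, 28.7 and 95.9 CPM in the monocyte class. It averaged 4877 ± 4770 CPM in labelled Skin (SD, n = 6) and 31.6 ± 26 CPM in labelled Monocyte (SD, n = 8), higher by a log2 change of 6.77 ± 1.36 (adjusted p = 0.00215). Col1a1 was therefore low but present in every monocyte-class library, whereas Col3a1, a chain of type III collagen, was 3719, 6079 and 8940 CPM in the skin class, and under 0.3 CPM in 7 of the 8 monocyte-class libraries with 12.6 CPM in Monocyte PBS 3. Dcn, the small proteoglycan decorin, was 2447, 2835 and 4124 CPM in the skin class and at most 1.18 CPM in the monocyte class, and was higher in labelled Skin by 10.70 ± 1.86 (adjusted p = 0.00079). In the comparison of labels 9 of 10 tested fibroblast genes were higher and 0 lower, and without the contradicted libraries 20 of 20 were higher.

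Most tested fat and vessel genes were higher in labelled Skin. Fabp4, the fatty acid carrier of adipocytes, was 1418, 3243 and 4815 CPM in the skin class and 0.146, 0.949 and 8.83 CPM in the monocyte class, and was higher in labelled Skin by a log2 change of 8.92 ± 1.60 (adjusted p = 0.000989). All 7 tested adipocyte genes were higher in labelled Skin, and Cidec, which coats lipid droplets, was 148, 337 and 370.3 CPM in the skin class and 0 in all 8 monocyte-class libraries. Cdh5, the cadherin of endothelium, was 45.9, 96.6 and 117 CPM in the skin class and at most 0.463 CPM in the monocyte class. Vwf, which platelets and their precursors also carry, was 24.7, 40.4 and 61.4 CPM in the skin class and 10.8, 28.0 and 138 CPM in the monocyte class, and overlapped. Of 7 tested endothelial genes 6 were higher in labelled Skin, and of 5 tested smooth muscle and pericyte genes 4 were higher, with 0 lower in either list.

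Skeletal muscle varied most within the skin class. The 16 muscle genes summed to 27084 CPM in Blood PBS 2, 5653 CPM in Skin PBS 3, 3290 CPM in Blood IVIG 3, 545 CPM in Skin IVIG 1, 201 CPM in Skin IVIG 2 and 50.6 CPM in Skin PBS 2, against 3.59, 77.3 and 134 CPM at the lowest, median and highest monocyte-class library. Skin PBS 2 thus lay inside the monocyte-class range. Myh4, the fast myosin heavy chain, was 1969 CPM in Blood PBS 2 and 1.23 CPM in Skin PBS 2. Of the 10 genes with the widest spread in the skin class and a median of at least 5 CPM, all 10 were muscle genes (Myh4, Atp2a1, Acta1, Ckm, Tnnt3, Tnnc2, Actn3, Mybpc2, Pvalb and Mylpf). In the comparison of labels 10 of 14 tested muscle genes were higher in labelled Skin and 0 lower.

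Transcripts of resident immune cells were in every skin-class library. Cd207, the langerin of Langerhans cells, was 3.06, 6.64 and 17.6 CPM in the skin class and 0 in all 8 monocyte-class libraries, so that its median lay at least 42-fold higher. Cd74, the invariant chain that guides major histocompatibility complex (MHC) class II, was 1551, 2025 and 2313 CPM in the skin class and 40.0, 96.9 and 162 CPM in the monocyte class. It was higher in labelled Skin, at 1447 ± 1075 CPM (SD, n = 6) against 98.8 ± 48.3 CPM in labelled Monocyte (SD, n = 8), with a log2 change of 4.09 ± 0.37 and an adjusted p of 5.02e-06. H2-Ab1, a chain of MHC class II, was 907, 1311 and 1709 CPM in the skin class and 14.7, 42.2 and 71.1 CPM in the monocyte class, and was higher in labelled Skin by 4.26 ± 0.39 (adjusted p = 5.02e-06). The class ranges of these 3 genes did not overlap. Of 13 tested Langerhans and dendritic cell genes 9 were higher in labelled Skin and 0 lower, with a median log2 change of 4.09.

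Markers of dermal macrophages lay apart in the classes. C1qa, a subunit of complement C1q made by macrophages, was 423, 748 and 1032 CPM in the skin class and at most 2.19 CPM in the monocyte class, and was higher in labelled Skin by a log2 change of 8.94 ± 1.46 (adjusted p = 0.000509). Mrc1, the mannose receptor, was 211, 287 and 358 CPM in the skin class and 1.72, 4.48 and 20.4 CPM in the monocyte class, and was higher in labelled Skin by 4.38 ± 0.90 (adjusted p = 0.00256). Folr2, a folate receptor of resident macrophages, was 35.5, 104 and 218 CPM in the skin class and at most 0.0570 CPM in the monocyte class. Ccl8, a chemokine made by dermal macrophages, was 116, 303 and 400.4 CPM in the skin class and 0 in all 8 of the monocyte class, at least 1915-fold higher by the medians. The ranges of these 4 genes did not overlap. Of 11 tested macrophage genes 9 were higher in labelled Skin and 0 lower, with a median log2 change of 4.38.

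The summed macrophage list of Blood PBS 2 lay inside the range of the other skin-class libraries, at 3428 CPM against 2284 to 4963 CPM. Yet 8 of the 16 genes of the list were highest there, against 3457 of all 14852 genes. Of these 8, the following 3 were chosen after their values were seen. Blood PBS 2 had 80.9 CPM of Cd209f, 247 CPM of Cd163 and 118 CPM of Retnla, against 0.597 to 3.65 CPM, 21.3 to 94.1 CPM and 2.73 to 76.9 CPM in the other 5. Cd209f and Cd163 encode receptors of tissue macrophages, and Retnla a secreted protein that interleukin-4 induces in mouse macrophages. This library was also the highest in muscle genes, and the part of that in these values was not tested.

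**Figure D4:**
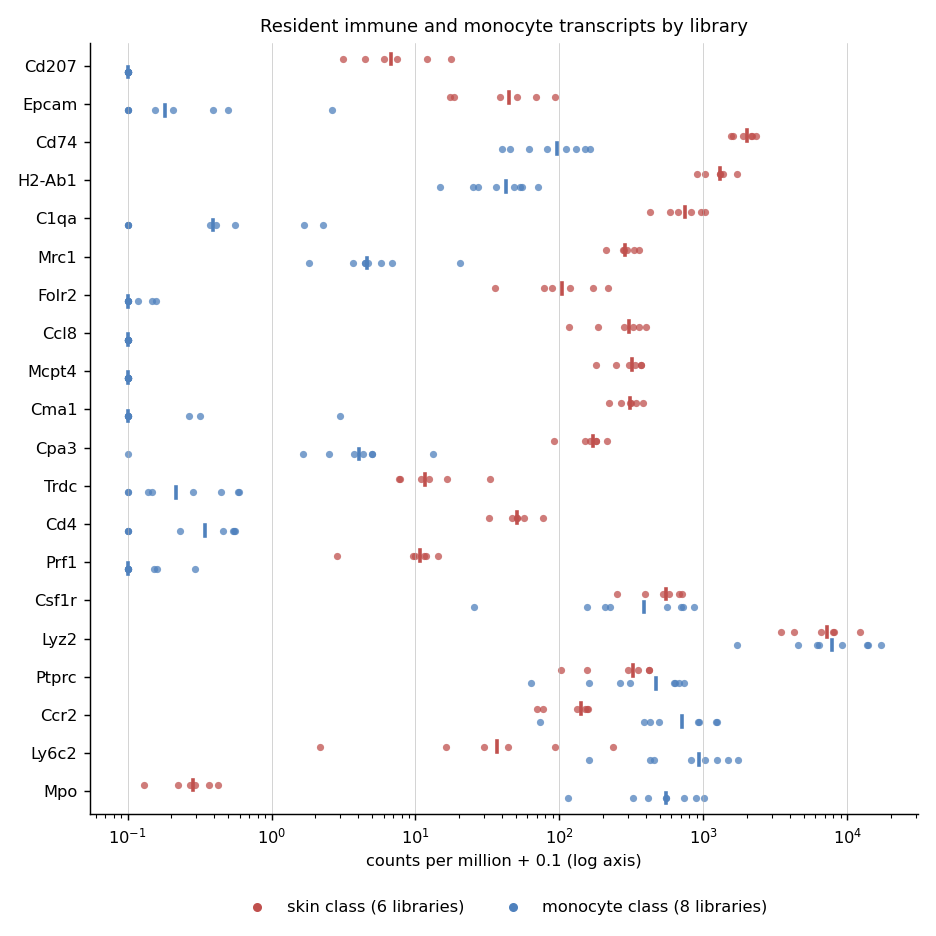
CPM with 0.1 added (log axis) of 20 immune genes in each skin-class (red, 6 points) and monocyte-class (blue, 8 points) library, with a line at each class median. Cd207, Ccl8 and Mcpt4 are 0 in all 8 monocyte-class libraries, Csf1r, Lyz2 and Ptprc overlap, and Mpo is at most 0.324 CPM in the skin class.

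Mast cell proteases were at high and even levels in the skin class. Mcpt4, the chymase of connective tissue mast cells, was 179, 321 and 369.9 CPM and Tpsb2, a tryptase, was 104, 159 and 171 CPM, with both at 0 in all 8 monocyte-class libraries. Cpa3, the mast cell carboxypeptidase, was 92.0, 171 and 214 CPM in the skin class and 0, 3.94 and 13.1 CPM in the monocyte class, and was higher in labelled Skin by a log2 change of 4.13 ± 1.03 (adjusted p = 0.00805). Within the libraries of series 5 it did not pass, at 3.77 (adjusted p = 0.0914). Skin PBS 3 was the lowest skin-class library for all 3. Hdc, which makes histamine and is also expressed by basophils and immature myeloid cells, went the other way, at 6.67, 9.78 and 12.0 CPM in the skin class and 15.1, 21.7 and 61.7 CPM in the monocyte class. Of 6 tested mast cell genes only Cpa3 passed the test of labels, and without the contradicted libraries 7 of 12 were higher and 1 lower.

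T cell and cytotoxic transcripts were low, and some lay apart in the classes. Trdc, the constant segment of the delta chain of the T cell receptor used by dendritic epidermal T cells, was 7.63, 11.5 and 32.9 CPM in the skin class and at most 0.495 CPM in the monocyte class, and was higher in labelled Skin by a log2 change of 5.51 ± 0.86 (adjusted p = 0.000348). Cd4, carried by helper T cells and some mouse dendritic cells and macrophages, was 32.6, 50.7 and 76.9 CPM in the skin class and at most 0.46 CPM in the monocyte class, and was higher in labelled Skin by 7.62 ± 0.91 (adjusted p = 4.46e-05). Prf1, the perforin of killer cells, was 2.76, 10.6 and 14.2 CPM in the skin class and at most 0.193 CPM in the monocyte class, and was higher by 7.76 ± 0.92 (adjusted p = 4.46e-05). Blood PBS 2 was the lowest skin-class library for Cd4 and Prf1, and for all 12 genes of the natural killer and T cell list, against 2341 of all 14852 genes. Of 14 tested skin T cell genes 11 were higher in labelled Skin and 0 lower, and without the contradicted libraries 7 of 15 were higher and 1 lower. The part of the haemoglobin-rich libraries in the first count was not tested. The summed skin T cell list did not overlap in CPM but did in non-mitochondrial CPM, at 118 to 349 in the skin class and 22.7 to 271 in the monocyte class, and the genes wholly above by 4-fold were 4 of 15 in place of 8. The natural killer and T cell list likewise overlapped, at 68.3 to 251 in the skin class and 2.43 to 83.8 in the monocyte class, with 4 of 12 genes wholly above in place of 6.

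The core monocyte genes overlapped between the classes. Csf1r, the receptor that maintains monocytes and macrophages, was 253, 552 and 707 CPM in the skin class and 25.5, 390.0 and 864 CPM in the monocyte class. It averaged 317 ± 284 CPM in labelled Skin (SD, n = 6) and 375 ± 301 CPM in labelled Monocyte (SD, n = 8), and did not pass the test, with a log2 change of -0.20 ± 0.42 and an adjusted p of 0.764. Lyz2 (chr10:117277331-117282321, minus strand), lysozyme of myeloid cells, was 3462, 7242 and 12272 CPM in the skin class and 1706, 7810 and 17122 CPM in the monocyte class, and did not pass, at -1.02 ± 0.42 (adjusted p = 0.0824). Lyz2 was lower in labelled Skin without Monocyte PBS 3, at -1.17 (adjusted p = 0.046), with DESeq2, at -0.94 (adjusted p = 0.00941), with limma voom, at -1.03 (adjusted p = 0.000761), and without the count filter, at -1.18 (adjusted p = 0.027). Ptprc (chr1:138062861-138175708, minus strand), the CD45 of all leukocytes, was 103, 327 and 419 CPM in the skin class and 62.9, 470.3 and 734 CPM in the monocyte class, at -0.43 ± 0.30 (adjusted p = 0.316), and passed with limma voom, at -1.03 (adjusted p = 0.000186). The lowest monocyte-class value of these 3 genes was in each case that of Monocyte PBS 3, in which mitochondrially coded genes took 82.7% of counts.

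Genes of circulating inflammatory monocytes were lower in labelled Skin. Ccr2, the receptor by which monocytes leave the marrow, was 70.3, 141 and 157 CPM in the skin class and 72.9, 706 and 1242 CPM in the monocyte class, and was lower in labelled Skin by a log2 change of -2.63 ± 0.36 (adjusted p = 0.000121). With totals in place of TMM scaling its adjusted p was 0.0615. Ly6c2, the surface marker of classical mouse monocytes, was 2.07, 36.7 and 235 CPM in the skin class and 160, 927 and 1743 CPM in the monocyte class, with a change of -3.30 ± 0.56 (adjusted p = 0.000666). Both overlapped only through Monocyte PBS 3, and neither overlapped in non-mitochondrial CPM. Cx3cr1, the fractalkine receptor, was 4.66, 9.05 and 12.3 CPM in the skin class and 151, 219 and 1331 CPM in the monocyte class, with a change of -5.04 ± 0.85 (adjusted p = 0.000653). The change was -3.25 without the labelled Monocyte libraries over 25% mitochondrial. Ly6c1, which mouse endothelium also carries, went the other way, at 180.0, 282 and 359 CPM in the skin class and 0, 1.96 and 3.55 CPM in the monocyte class, and was higher in labelled Skin by 5.88 ± 0.89 (adjusted p = 0.000283). Of 18 tested monocyte genes 11 were lower in labelled Skin and Ly6c1 alone was higher, with a median log2 change of -1.42.

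The largest decreases in labelled Skin were those of genes of immature granulocytes and their progenitors. Mpo (chr11:87793581-87804413, plus strand), the peroxidase of primary granules, was 0.0291, 0.183 and 0.324 CPM in the skin class and 115, 551 and 1007 CPM in the monocyte class. It was lower in labelled Skin, at 0.126 ± 0.108 CPM (SD, n = 6) against 594 ± 300.2 CPM in labelled Monocyte (SD, n = 8), with a log2 change of -11.96 ± 0.49 and an adjusted p of 6.1e-10. Fcnb, a ficolin of immature myeloid cells in mice, was 0 in 5 skin-class libraries and 0.0576 CPM in Skin IVIG 1, against 10.0, 45.6 and 140.2 CPM in the monocyte class, with a change of -11.99 ± 0.91 (adjusted p = 7.4e-07). Camp, an antimicrobial peptide of secondary granules, was 0.158, 1.16 and 4.64 CPM in the skin class and 308, 621 and 3168 CPM in the monocyte class, with a change of -10.95 ± 1.41 (adjusted p = 8.04e-05). Of 11 tested progenitor genes 8 were lower in labelled Skin and 1 was higher, and of 14 tested neutrophil genes 11 were lower and 0 higher. The neutrophil genes S100a8 and S100a9 belong to the class rule, and Monocyte PBS 1 of the neutrophil class is among the labelled Monocyte libraries.

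Every proliferation gene of the list was lower in labelled Skin. Mki67, expressed by dividing cells, was 16.9, 35.9 and 82.5 CPM in the skin class and 61.1, 905 and 1214 CPM in the monocyte class, and was lower in labelled Skin by a log2 change of -4.45 ± 0.43 (adjusted p = 7.42e-06). Mcm3, a subunit of the replicative helicase, was 13.4, 18.4 and 24.0 CPM in the skin class and 47.4, 296 and 365 CPM in the monocyte class, and was lower by -4.00 ± 0.27 (adjusted p = 2.83e-07). All 16 genes of the list were tested and lower, with a median log2 change of -3.65. Monocyte PBS 3 held the lowest monocyte-class value of both genes and alone reached the skin-class range for Mki67. In non-mitochondrial CPM the list was 199 to 556 in the skin class and 2345 to 4507 in the monocyte class and did not overlap.

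Immediate early genes, which tissue handling and cell isolation are known to induce, were also lower in labelled Skin. Fos was 37.0, 311 and 388 CPM in the skin class and 261, 3434 and 7081 CPM in the monocyte class, with a log2 change of -4.04 ± 0.59 (adjusted p = 0.000227). Jun was 101, 199 and 295 CPM in the skin class and 117, 2250 and 5611 CPM in the monocyte class, with a change of -3.84 ± 0.56 (adjusted p = 0.00021). Of 12 tested genes of the list 8 were lower and 0 higher. In non-mitochondrial CPM the list summed to 810.0 to 2196 in the skin class and to 4528 to 30452 in the monocyte class and did not overlap. How far the handling of tissue and of isolated cells contributed to the genes above was not tested.

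Most complement genes made in tissue were higher in labelled Skin. C4b, a component of the classical pathway, was 638, 828 and 1016 CPM in the skin class and 0, 2.88 and 12.0 CPM in the monocyte class, and was higher in labelled Skin by a log2 change of 7.26 ± 1.16 (adjusted p = 0.000429). Cfb, factor B of the alternative pathway, was 59.8, 129 and 222 CPM in the skin class and at most 6.13 CPM in the monocyte class, and was higher by 4.51 ± 0.83 (adjusted p = 0.00119). Cfd, the factor D that fat cells secrete, was 1175, 2469 and 3059 CPM in the skin class and at most 0.629 CPM in the monocyte class. C3, the central component, overlapped, at 602, 1220.2 and 2142 CPM in the skin class and 51.3, 563 and 1199 CPM in the monocyte class. Of 11 tested complement genes 10 were higher in labelled Skin and 0 lower, with a median log2 change of 4.84.

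Receptors for immunoglobulin G (IgG), the antibody class that IVIG consists of, differed gene by gene. Fcgrt, the neonatal receptor that recycles IgG, was 120, 130 and 224 CPM in the skin class and 1.65, 30.9 and 52.3 CPM in the monocyte class, and was higher in labelled Skin by a log2 change of 1.79 ± 0.38 (adjusted p = 0.00301). With totals in place of TMM scaling its adjusted p was 0.222. The inhibitory receptor Fcgr2b was 99.5, 136 and 160.1 CPM in the skin class and 9.56, 104 and 162 CPM in the monocyte class. The activating receptor Fcgr3 was 132, 182 and 302 CPM in the skin class and 6.82, 123 and 239 CPM in the monocyte class, and both genes overlapped. Fcgr4, an activating receptor for mouse IgG2 subclasses, was 131 CPM in Blood IVIG 3, 125 CPM in Skin PBS 2, 89.5 CPM in Skin PBS 3, 39.4 CPM in Skin IVIG 1, 24.4 CPM in Skin IVIG 2 and 4.10 CPM in Blood PBS 2, against at most 7.38 CPM in the monocyte class. Fcgr1, the high-affinity receptor, kept the same ends in the skin class, with 220.4 CPM in Blood IVIG 3 and 13.7 CPM in Blood PBS 2, against 2.39 to 40.7 CPM in the monocyte class. The list also holds Fcmr and Fcer1g, which do not bind IgG themselves. Of its 7 tested genes 3 were higher in labelled Skin (Fcgrt, Fcmr and Fcgr1) and 1 was lower (Fcer1g). Without the contradicted libraries 6 were tested, with 3 higher and 1 lower, and Fcmr was no longer among them. Fcmr averaged less than 1 CPM in both classes. The part of the haemoglobin-rich libraries labelled Skin in its call was not tested.

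Chemokines and cytokines did not all go one way. Csf1, the growth factor for Csf1r, was 37.0, 60.5 and 78.2 CPM in the skin class and 1.25, 4.34 and 7.00 CPM in the monocyte class, and was higher in labelled Skin by a log2 change of 2.63 ± 0.41 (adjusted p = 0.000362). Il34, the other ligand of that receptor, made by keratinocytes, was 11.5, 18.6 and 27.1 CPM in the skin class and at most 0.0492 CPM in the monocyte class. Il33, an alarmin of epithelium and stroma, was 30.5, 37.6 and 76.6 CPM in the skin class and 0 in all 8 monocyte-class libraries, at least 238-fold higher by the medians. Ccl7, a chemokine for monocytes, was 10.8, 39.5 and 114 CPM in the skin class and at most 1.5 CPM in the monocyte class, and was higher in labelled Skin by 6.87 ± 1.29 (adjusted p = 0.00135). Ccl3, which activated myeloid cells release, was 3.84, 39.3 and 63.3 CPM in the skin class and 18.1, 296 and 599 CPM in the monocyte class, and was lower by -3.28 ± 0.62 (adjusted p = 0.00138). Of 18 tested genes of the list 7 were higher in labelled Skin and 2 lower. Over all 14234 tested genes 15.7% were higher and 10.5% lower, so the share of lower genes was near that of all genes.

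Interferon-stimulated genes varied widely within the skin class. Ifit3, an antiviral effector, was 389 CPM in Skin PBS 2, 151 CPM in Blood IVIG 3, 138 CPM in Skin PBS 3, 49.9 CPM in Skin IVIG 1, 33.5 CPM in Skin IVIG 2 and 28.9 CPM in Blood PBS 2, against 0, 11.4 and 24.6 CPM in the monocyte class. It was higher in labelled Skin by a log2 change of 3.28 ± 0.80 (adjusted p = 0.0074). Isg15, a ubiquitin-like modifier, was 9.46, 48.8 and 224 CPM in the skin class and 0, 9.43 and 17.9 CPM in the monocyte class, and was higher by 5.56 ± 1.01 (adjusted p = 0.00107). The Isg15 change was 3.29 without the contradicted libraries and 2.37 with limma voom. All 16 genes of the list were highest in Skin PBS 2 among the skin-class libraries, and the lowest was Blood PBS 2 for 12 and Skin IVIG 2 for 4. Of all 14852 genes, 1695 were highest in Skin PBS 2, 2341 were lowest in Blood PBS 2 and 2711 in Skin IVIG 2. Of the 16, all tested, 8 were higher in labelled Skin and 0 lower, with a median log2 change of 1.16.

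**Figure D5:**
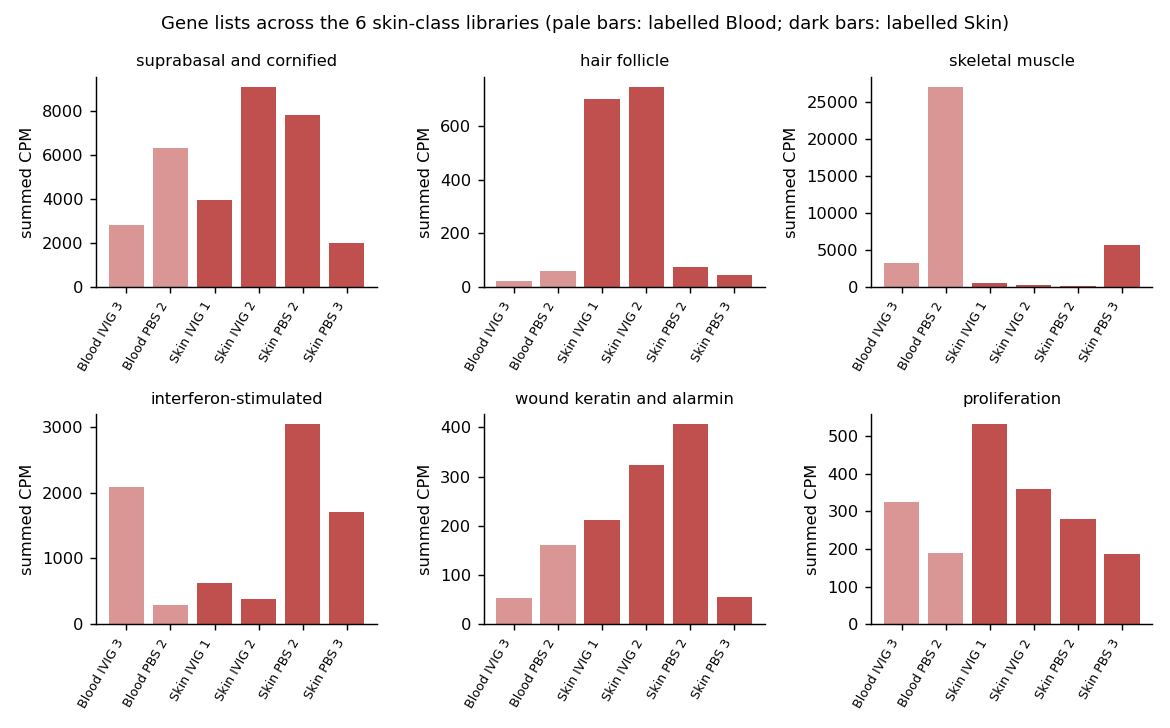
Summed CPM (bars, axis from 0) of 6 gene lists in each of the 6 skin-class libraries, with the pale bars of the libraries labelled Blood and the dark bars of those labelled Skin. Muscle genes reach 27084 CPM in Blood PBS 2, hair follicle genes 701 and 744 CPM in Skin IVIG 1 and Skin IVIG 2, and interferon-stimulated genes 3033 CPM in Skin PBS 2.

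Over the genes compared, the skin-class libraries spread less in CPM than those of the monocyte class, and for some lists they spread widely. Over 14852 genes the median ratio of the highest to the lowest library, with 1 CPM added to each, was 1.78 over the 6 libraries of the skin class and 7.04 over the 8 of the monocyte class. In the skin class the same median was 299 for muscle, 12.5 for hair follicle, 10.6 for interferon-stimulated, 10.5 for wound keratin and alarmin and 5.17 for suprabasal genes, against 2.61 for fibroblast and 2.02 for mast cell genes. In the monocyte class it was 144 for erythroid, 41.9 for immediate early and 14.2 for interferon-stimulated genes. The 14852 genes leave out some genes of the monocyte class. They hold 7 of the 11 erythroid and 10 of the 14 neutrophil genes that averaged 1 CPM or more in either class. Mitochondrial shares of 3.68% to 82.7% also enter the CPM of the monocyte class, and their part in its ratios was not tested.

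Most epidermal genes were highest in one and the same skin-class library. Of 21 suprabasal genes averaging 1 CPM or more, 18 were highest in Skin IVIG 2 and 18 were lowest in Skin PBS 3. The list summed to 9098 CPM in Skin IVIG 2, 7829 in Skin PBS 2, 6347 in Blood PBS 2, 3966 in Skin IVIG 1, 2836 in Blood IVIG 3 and 2006 in Skin PBS 3. Of 13 desmosomal genes 12, and of 12 basal genes 9, were highest in Skin IVIG 2, and 10 of the 12 basal genes were lowest in Blood IVIG 3. Over all 14852 genes, 2256 were highest in Skin IVIG 2, 1935 were lowest in Skin PBS 3 and 4513 were lowest in Blood IVIG 3. The wound keratin and alarmin list followed this order in part. Of its 11 genes 6 were highest in Skin PBS 2, against 1695 of all 14852 genes, and 4 were highest in Skin IVIG 2. As with the suprabasal genes, most of them, 8 of the 11, were lowest in Skin PBS 3. The 2 keratins named next are among those highest in Skin PBS 2. Krt6b was 29.5 CPM and Krt16 35.1 CPM in Skin PBS 2, against at most 0.281 and 5.85 CPM in the other 5 skin-class libraries. Both are keratins of wounded or hyperproliferative epidermis.

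The other lists had their extremes in other libraries. Of 16 proliferation genes 15 were highest in Skin IVIG 1, and 13 of 15 muscle genes were highest in Blood PBS 2. Among all 14852 genes, 4333 were highest in Skin IVIG 1 and 3457 in Blood PBS 2. The list of genes shared by all leukocytes summed to 5318 CPM in Blood IVIG 3, 4613 in Skin PBS 2, 4524 in Skin PBS 3, 3180 in Skin IVIG 1, 2236 in Skin IVIG 2 and 1622 in Blood PBS 2. For 11 of its 15 genes the lowest was Blood PBS 2, against 2341 of all 14852 genes. In non-mitochondrial CPM the list did not overlap between the classes, at 1761 to 5545 in the skin class and 8909 to 12619 in the monocyte class. The 2 skin-class libraries labelled Blood were thus at opposite ends of this list, and the 4 labelled Skin lay between them.

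The largest increases in the comparison of labels were led by haemoglobin genes. The 10 largest increases in labelled Skin were those of Hbb-bs, Hba-a2, Hba-a1, Hbb-bt, Ramp2, Dcn, Scd1, Krt10, Clec3b and Col5a2. Hbb-bs was 77.4, 90.7 and 126 CPM in the skin class and 4.79, 44.5 and 2500 CPM in the monocyte class, yet changed by 13.63 ± 4.81 on the log2 scale in labelled Skin (adjusted p = 0.047). Without the contradicted libraries the change was -2.73, and the call was lost when any of 11 single libraries was left out. The 10 largest decreases were those of Fcnb, Mpo, Ms4a3, Ngp, Camp, Itgb2l, Gm47777, Elane, Ly6g and Mcpt8, most of which are genes of granules or surfaces of granulocytes and their precursors.

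No gene passed the test of the labelled treatment. In the same 14 labelled libraries, with the tissue in the model, 0 of 14234 genes (0%) passed for IVIG against PBS. The smallest adjusted p was 0.9999, and 168 genes had an unadjusted p under 0.05, fewer than the 712 expected by chance. The fit holds the 3 contradicted libraries, and its agents are those of the deposited names. It therefore cannot show that the treatment had no effect. DESeq2 called 1 gene. Within the skin class 3 libraries carry an IVIG and 3 a PBS label, and an exact permutation test of 3 against 3 cannot give a two-sided p below 0.1. Interferon-stimulated genes summed to 2080, 629 and 381 CPM in the skin-class libraries labelled IVIG and to 295, 3033 and 1708 CPM in those labelled PBS, and overlapped. Basal genes summed to 924, 2013 and 3550 CPM with IVIG and to 2364, 2760 and 1286 CPM with PBS, and overlapped too.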

How the data were processed

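Estimated counts (expected counts, as length-scaled TPM) were deposited by the authors for 46264 gene symbols. Per the submitters' processing notes kallisto 0.46.1 and GRCm38 were used; other steps are not given in the sources used here. The counts were rounded, CPM were taken from each total, and labelled Skin (6) was compared with labelled Monocyte (8) in edgeR 4.0.16 (R 4.3.3) with TMM scaling, a minimum count of 10 and Benjamini-Hochberg adjusted p under 0.05; the SE is the log2 change over the root of F. DESeq2 1.42.0 and limma 3.58.1 were alternatives, and the procedure was tested on simulated data. None of 15 skin-class and 28 monocyte-class library pairs were identical.

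The class members and the 34 gene lists (460 of 464 genes present) were chosen with earlier results of these data known. Named genes were the class genes, Col1a1, laminin 332 genes, Csf1r, Lyz2 and Ptprc, the 10 largest called increases and decreases among genes averaging 5 CPM or more in one label, the 5 genes of lowest p in a list, and those of widest spread in a class; others, among them Lor, Ivl, Krtdap, Mcpt4, Cd207, Krt71 and the untested receptors and chemokines, were chosen after their values were seen. Gene positions are from GENCODE vM21. Some items of the lists are not reported here.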

Additional observations from a re-analysis of the deposited data

Results flagged for a closer look

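Of 81 sets of class libraries checked for one value far from the rest, 11 held one, and chance alone gives about 1 in 20. All sums are in CPM.

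Monocyte PBS 3, the library with 82.7% mitochondrially coded counts, was the far lowest of the monocyte class in 5 lists. It had 38.6 for laminin 332 and basement membrane genes, where the next library had 105, and 335 for myeloid progenitor genes, where the next had 1020. It had 407 for proliferation genes, where the next had 1615, and 1545 for the leukocyte core, where the next had 4899. It had 94.1 for the Fc gamma receptor list, where the next had 398.

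In the skin class, Blood IVIG 3 was far lowest for sebaceous genes at 3310, where the next had 8498, and for adipocyte genes at 6482, where the next had 13378. Blood PBS 2 was far lowest for natural killer and T cell genes at 62.9, where the next had 155. Skin IVIG 2 was far lowest for immediate early and stress genes at 755, where the next had 1708.

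Single values stood out in the monocyte class. Monocyte PBS 2 had 21.8 for wound keratin and alarmin genes, where the next had 3.13. That list also holds Stfa1, Stfa2 and Stfa3, so its sum is not one of wound keratins alone. Lamb3 was 47.4 in Monocyte IVIG 2, where the next had 4.69.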

How the results depend on the processing

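All counts here are of genes higher and lower in labelled Skin, 2230 and 1497 as reported. They were 3430 and 1775 with DESeq2, 5912 and 4182 with limma voom and quality weights, 983 and 560 with totals in place of TMM, and 5816 and 2181 without the count filter. They were 4235 and 2432 without the 3 contradicted libraries, 4065 and 2623 when mitochondrial genes were also left out, and 4582 and 2808 without the labelled Monocyte libraries over 25% mitochondrial. Leaving out each library gave 1767 to 2389 and 1147 to 2186, the highest count of lower genes without Monocyte PBS 3. For IVIG against PBS each leave-one-out count was 0 and DESeq2 called 1 gene as lower. The count of 2841 genes wholly above between classes was 4895 at 2-fold and 2739 to 3026 with each library left out, and the 178 wholly below became 591 with TMM scaling, 587 in non-mitochondrial CPM, 921 without the high-mitochondrial libraries and 172 to 639 with each library left out, the highest without Monocyte PBS 3.

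The titles of Skin and Monocyte libraries share 4 numbers, with correlations of deviations of 0.15, -0.01, 0.02 and 0.04. The contradicted libraries Skin PBS 1, Monocyte PBS 1 and Skin IVIG 3 are among them. The correlations therefore cannot decide whether the numbers pair the libraries. With these numbers as a replicate block the counts were 93 and 164, and 26 of 46 genes refitted under each alternative lost their call. In that fit only the libraries of the 4 shared numbers inform the difference, and the 2 blood-class libraries labelled Skin are among them. The lost calls therefore cannot be put down to pairing. The Col1a1 change was 2.50 in this fit. Hbb-bs reversed to -2.73 without the contradicted libraries and to -2.81 without mitochondrial genes as well, and the erythroid list reversed to a log2 ratio of class medians of -0.0585 when only libraries labelled as their class were used. Under totals alone Itga6, Fcgrt, Ccr2 and Spi1 lost their call, and under voom Lamb3, Lyz2, Ptprc and Tslp gained one, as Lyz2 did with DESeq2 and without the count filter; the cause was not tested. Halving the S100a8 and S100a9 limit left 6 monocyte-class libraries. Depth limits the monocyte class, where 3 counts are 0.158 CPM in the shallowest library.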

Other observations

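The lists not described above gave the following values. Genes of the plasmacytoid dendritic cell list summed to 592, 1041 and 1808 CPM at the lowest, median and highest skin-class library. In the monocyte class they summed to 27.8, 208 and 267 CPM. Of 7 tested genes 4 were higher in labelled Skin (Tcf4, Ly6d, Irf7 and Cox6a2). Irf7 is also in the interferon-stimulated list, and whether such cells were present was not tested. Schwann cell and melanocyte genes summed to 424, 599 and 868 CPM in the skin class and to 43.2, 78.2 and 150.3 CPM in the monocyte class.

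The B cell list overlapped, at 202, 319 and 378 CPM in the skin class and 86.2, 364 and 724 CPM in the monocyte class. Ebf1, which stromal and fat cells also express, was its exception, at 33.7, 54.7 and 79.8 CPM in the skin class and 0.333, 1.07 and 3.49 CPM in the monocyte class, with a log2 change of 4.60 ± 0.53 in labelled Skin (edgeR adjusted p = 3.75e-05). Cd34, counted among progenitor genes and also made by vessels and fibroblasts, was 356, 517 and 709 CPM in the skin class and 4.94, 15.8 and 25.9 CPM in the monocyte class.

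Cartilage genes summed to 3.35, 6.38 and 9.39 CPM in the skin class and to 5.95, 14.7 and 26 CPM in the monocyte class. Platelet genes overlapped, at 150, 202 and 331 CPM in the skin class and 104, 175 and 391 CPM in the monocyte class. Erythroid genes overlapped as well, at 222, 284 and 352 CPM in the skin class and 48.2, 166 and 6226 CPM in the monocyte class, the highest in Monocyte IVIG 2. Wound keratin and alarmin genes summed to 53.9, 186 and 406 CPM in the skin class and to 0.793, 2.71 and 21.8 CPM in the monocyte class. The 3 of the list tested between labels were Tslp, Il36g and Stfa1, and 0 passed, so no wound keratin was tested there. Tslp, a keratinocyte cytokine of that list, did not pass, at 2.18 ± 0.90 (edgeR adjusted p = 0.0847), and passed with limma voom, at 2.49 (adjusted p = 2.4e-05).

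The remaining lists gave these counts when the labels were compared. In the B cell list 7 of 8 tested genes were higher in labelled Skin, and without the 3 contradicted libraries 2 of 8 were higher and 2 lower. In the erythroid list 5 of 11 were higher and 1 lower, against 0 higher and 4 lower without those libraries. In the platelet list 2 of 8 were higher, against 1 higher and 7 lower without them. Of 11 tested natural killer and T cell genes 6 were higher, of 4 tested hair follicle genes 3, of 4 tested Schwann cell and melanocyte genes 2, and of 2 tested cartilage genes 0. Of 15 genes shared by all leukocytes 7 were lower, and all 11 mitochondrially coded genes were lower.

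When the 34 deposited column names were laid over the columns in text order, which moves 29 names, the named tissue was the marker class in all 34 libraries, against 25 with the names as deposited. No library was reassigned here, and the IVIG and PBS values above hold for the names as deposited.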
